A study of Mus musculus with 3 samples.

Results

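The genes described here make, relay, and remove the signal of nitric oxide in developing SST+ neurons of the mouse neocortex (NCx). They are Nos1, the neuronal nitric oxide synthase; Nos1ap and Dlg4, whose proteins bind the synthase; Cygb, a globin that removes nitric oxide; Gucy1a2, a subunit of the nitric oxide receptor; Prkg1 and Prkg2, the kinases activated by cGMP; and Pde5a, a phosphodiesterase that breaks cGMP down. All 8 genes were chosen by name, among the 31053 genes of the count matrices, and each was found in all 3 libraries.

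Nitric oxide is a gas that diffuses out of the cell that makes it. The neuronal synthase makes it from arginine when calcium and calmodulin bind, and PSD-95, the protein of Dlg4, holds the synthase near NMDA receptors at the synapse. In the same or a neighboring cell, nitric oxide binds the soluble guanylate cyclase, a dimer of an alpha subunit (Gucy1a1 or Gucy1a2) and a beta subunit (Gucy1b1), which then makes cGMP. In the cortex, the neurons with the most synthase are the long-range projecting (LRP) GABAergic neurons that also contain somatostatin and neuropeptide Y.

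The cells came from Sst-Cre; RCEloxP mice, in which Cre under the control of the Sst gene switches on a GFP reporter, so that GFP marks cells that express Sst or once did. The NCx was dissected at E16.5, P1, and P5, and GFP+ cells without DAPI were sorted by FACS and captured with the 10x Genomics Chromium system. Each stage is 1 library of pooled tissue, with 6 animals pooled for the embryonic library and 3 for each postnatal one, and all libraries share the same genotype without a further treatment. Per the study's methods, myelin was removed from the postnatal tissue only, and trypsin was added in the last stage. With 1 library per stage, differences between stages cannot be told apart from differences between libraries, no test was made, and the intervals given are exact 95% limits that cover counting error only.

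The matrices hold 25638779 UMIs (counts of distinct mRNA molecules, each told apart by its own random barcode) in 4478 cells at E16.5, 15654107 in 4440 cells at P1, and 13429055 in 3406 cells at P5. Cells with over 700 genes and under 10% mitochondrial UMIs were kept, which left 3952, 2501, and 2980 cells with a median of 5577, 3293, and 3935.5 UMIs, respectively. At P1, only 56.3% of cells were kept, and 1506 of the 1939 removed cells had too many mitochondrial UMIs. Kept cells of different libraries shared at most 2 barcodes. Markers of astrocytes, oligodendrocytes, microglia, endothelial cells, mural cells, and red blood cells summed to between 0 and 18.5 CPM (the UMIs of a gene scaled to a fixed total of 1000000 UMIs) in either class of cells compared below.

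The promoters of 4 genes are shown for context, those of the synthase, of both subunits of the cyclase that differed between the cells, and of the phosphodiesterase Pde5a. The results below are UMI counts and rest on no promoter sequence. The sequences are from RefSeq (GRCm38.p6), 5′ to 3′ on the strand of the gene, from 250 bases before the start to 50 bases after it. Capitals mark matches on either strand to TGACG (the half-site of the cAMP response element), CCAAT, ATGCAAAT (the octamer of POU factors), GGGCGG (the GC box), or TATAAA. The table has entries for 6 of the 8 genes.

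Nos1, chr5:117866589-117866888, plus strand: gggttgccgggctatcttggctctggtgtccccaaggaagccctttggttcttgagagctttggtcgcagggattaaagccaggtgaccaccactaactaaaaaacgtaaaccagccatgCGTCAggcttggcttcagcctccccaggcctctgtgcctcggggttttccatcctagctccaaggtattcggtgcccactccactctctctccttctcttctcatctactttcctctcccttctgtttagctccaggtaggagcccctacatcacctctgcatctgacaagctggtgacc
Gucy1a1, chr3:82145601-82145900, minus strand: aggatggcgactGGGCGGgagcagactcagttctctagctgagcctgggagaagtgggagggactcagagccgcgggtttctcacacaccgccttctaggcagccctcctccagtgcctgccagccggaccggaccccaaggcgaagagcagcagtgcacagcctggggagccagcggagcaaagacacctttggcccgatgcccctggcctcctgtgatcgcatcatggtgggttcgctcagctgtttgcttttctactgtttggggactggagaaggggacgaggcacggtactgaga
Gucy1b1, chr3:82074662-82074961, minus strand: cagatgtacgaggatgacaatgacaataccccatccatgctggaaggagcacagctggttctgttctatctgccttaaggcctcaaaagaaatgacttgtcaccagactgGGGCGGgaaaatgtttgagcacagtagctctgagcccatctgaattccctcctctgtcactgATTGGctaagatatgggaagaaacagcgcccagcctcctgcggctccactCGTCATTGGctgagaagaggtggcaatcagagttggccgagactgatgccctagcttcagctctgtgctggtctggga
Pde5a, chr3:122728908-122729207, plus strand: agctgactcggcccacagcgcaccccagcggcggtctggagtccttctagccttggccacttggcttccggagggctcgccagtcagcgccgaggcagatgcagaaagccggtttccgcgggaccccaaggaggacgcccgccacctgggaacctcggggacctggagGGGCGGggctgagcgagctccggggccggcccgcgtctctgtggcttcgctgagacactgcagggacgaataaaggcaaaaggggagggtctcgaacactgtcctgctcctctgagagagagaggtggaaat

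The window of Nos1 held 1 cAMP response half-site, found in 20.8% of all 32851 promoters of the table, and no match to the other motifs. That of Gucy1b1 held 1 half-site and 2 CCAAT boxes, found in 37.4% of promoters, with 1 GC box, found in 35.7%, and its half-site overlaps a CCAAT box. The printed windows of Gucy1a1 and Pde5a held 1 GC box each. The table has another window for Gucy1a1, at positions 82145024 to 82145323, which held no match to any of the motifs. The octamer (1.74% of promoters) and the TATA box (13.6%) had no match in these 4 windows.

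In the GENCODE annotation of GRCm38, Nos1 spans positions 117781032 to 117958840 of chromosome 5, and the printed window lies inside these limits. Nos1ap and Prkg1 are on chromosomes 1 and 19, Cygb and Dlg4 on chromosome 11, Prkg2 on chromosome 5, Gucy1a2 on chromosome 9, and Pde5a on chromosome 3. Gucy1a1 and Gucy1b1 lie 17737 bases apart on the minus strand of chromosome 3. Cygb overlaps Prcd on the other strand. Whether the counting used strand is not given in the sources used here, and the part of reads from this overlap was not tested.

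Nos1, which makes nitric oxide, was found in few cells before birth and in many more after it. At E16.5, 67 of 3952 kept cells held at least 1 Nos1 UMI, which is 1.70% (exact Clopper-Pearson interval 1.32 to 2.15%). At P1, the share was 17.4% (15.9 to 18.9%), from 434 of 2501 cells, and at P5 it was 18.4% (17.0 to 19.8%), from 547 of 2980 cells. The intervals of P1 and P5 overlap, and that of E16.5 lies below both. With each cell thinned to 2000 UMIs, the shares were 0.802%, 16.2%, and 15.6%. Under a stricter filter (over 1000 genes and under 5% mitochondrial UMIs), the share was 33.0% at P1 and 23.2% at P5, so the order of these libraries depends on the cells kept.

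The cells with Nos1 also held more of it after birth. The median cell with Nos1 had 1 Nos1 UMI at E16.5, beside 5 (P1) and 8 (P5), and the highest cell had 13, 59, and 44. A single UMI was all there was in 56.7% of these cells at E16.5, in 29.0% at P1, and in 14.8% at P5. Their Nos1 level was 269 CPM (exact Poisson interval 229 to 314) at E16.5, 1972 CPM (1910 to 2035) at P1, and 2726 CPM (2654 to 2800) at P5. Thus both the share of cells and the level within them differed between E16.5 and the later libraries. From P1 to P5, under the main filter, the level was higher with no separation of the shares. These levels include the cells with a single UMI, whose part in this difference was not tested.

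Of the other synthases, Nos2, the inducible form, had 1 UMI in the compared cells of all 3 libraries. Nos3, the endothelial form, had 1.68, 3.05, and 5.60 CPM in cells with Nos1 and 1.32, 3.00, and 3.24 CPM in the comparison cells at E16.5, P1, and P5, from at most 30 UMIs in a class. Nos1 was thus the only synthase of the 3 with more than 30 UMIs in a class.

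To tell cells that make the signal from cells that could respond to it, the kept cells with at least 1 Nos1 UMI (Nos1 cells, 67, 434, and 547 at the 3 stages) were compared with the cells that had an Lhx6 UMI and no Nos1 UMI (Lhx6 cells without Nos1, 3269, 1606, and 1874). Lhx6 is a transcription factor of interneurons from the medial ganglionic eminence. The remaining 616, 461, and 559 cells had neither. The median depth was 7863, 3704.5, and 3073 UMIs in Nos1 cells beside 5808, 3811, and 4752.5 in Lhx6 cells without Nos1. Because Nos1 defines the classes, its own difference between them is no result.

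Nos1 cells carried the markers of LRP neurons. All 8 genes of that list (Chodl, Npy, Pou3f2, Ptn, Col25a1, Crhbp, Sfrp1, and Tacr1) were at least 2-fold higher in Nos1 cells in each library, with summed levels of 13731, 27838, and 38687 CPM against 1920, 1543, and 1095 CPM. Nos1 itself is an LRP gene that the study picked from these libraries. Of 6 Martinotti cell (MC) markers, 4 were lower in each library, and of 5 non-Martinotti cell (nMC) markers, 4 were lower at P1 and P5 and 1 at E16.5. At E16.5, the MC marker Cbln4 was higher in Nos1 cells (33.7 against 5.60 CPM), as was the nMC marker Tac1 (118 against 21.1 CPM). An Lhx6 UMI was present in 49, 360, and 392 of the Nos1 cells, and an Sst UMI in 55, 394, and 525.

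At E16.5, Nos1 cells also carried markers of excitatory neurons. Of 9 such markers, 8 were at least 2-fold higher in Nos1 cells, and their summed level was 1412 CPM against 447 CPM. At P1, 6 of 7 with enough UMIs were higher, with 652 against 393 CPM, and at P5 none of 3, with 253 against 180 CPM. Cells with UMIs of 3 or more of these markers made up 14 of the 67 Nos1 cells of the E16.5 library, 16 of the 434 of P1, and 3 of the 547 of P5. Log2 ratios at E16.5 that moved by 0.2 or more without them are given both ways below for the 7 other genes, the cyclase subunits, and Pde1a, where Nos1 cells held at least 10 UMIs. Markers of Meis2 inhibitory neurons summed to 178 against 47.4 CPM at E16.5, where Meis2 itself was higher and the other 2 with enough UMIs, Tshz1 and Pbx3, were lower. Immediate early genes summed to 358, 195, and 302 CPM in Nos1 cells against 260, 98.0, and 161 CPM, and their part in the results was not tested.

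Among cells with at least 3 excitatory markers and no Lhx6, Gad1, or Gad2 UMI, which were taken as a class that should lack the genes of SST+ neurons, a Nos1 UMI was present in 31.4% of 35 cells (E16.5), 36.0% of 25 cells (P1), and 10.5% of 19 cells (P5). Their median depth was 10809, 5316, and 4954 UMIs. They held 15, 11, and 2 Nos1 UMIs beside 29, 5, and 0 Sst UMIs, and all kept cells held 0.221, 15.7, and 22.2 Nos1 UMIs per 100 Sst UMIs. They also held 58, 96, and 4 UMIs of Npy, another gene high in Nos1 cells. Whether their Nos1 UMIs were their own or free RNA was not tested, so they set no background for Nos1. The part of free RNA in the cells with a single Nos1 UMI was not tested either.

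Of the 7 other genes, 2 were at least 2-fold higher in Nos1 cells at P1 and P5 (Cygb and Prkg2) and Pde5a was at least 2-fold lower at both stages. A gene was called when its log2 ratio, taken with a pseudocount of 1 CPM, passed 1 in either direction and both classes together had at least 10 UMIs. At E16.5, 1 of the 6 genes with enough UMIs was higher, where 6.45% of all 13573 genes were higher, and none was lower, where 8.69% were lower. At P1, 2 of 7 were higher (4.32% of 13024 genes) and 2 were lower (3.72%), and at P5, 2 of 7 were higher (4.21% of 13414 genes) and 1 was lower (7.08%). The median log2 ratio of the 7 genes was -0.20, 0.01, and -0.08 at the 3 stages, beside -0.05, -0.03, and -0.07 over all genes.

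**Figure D1:**
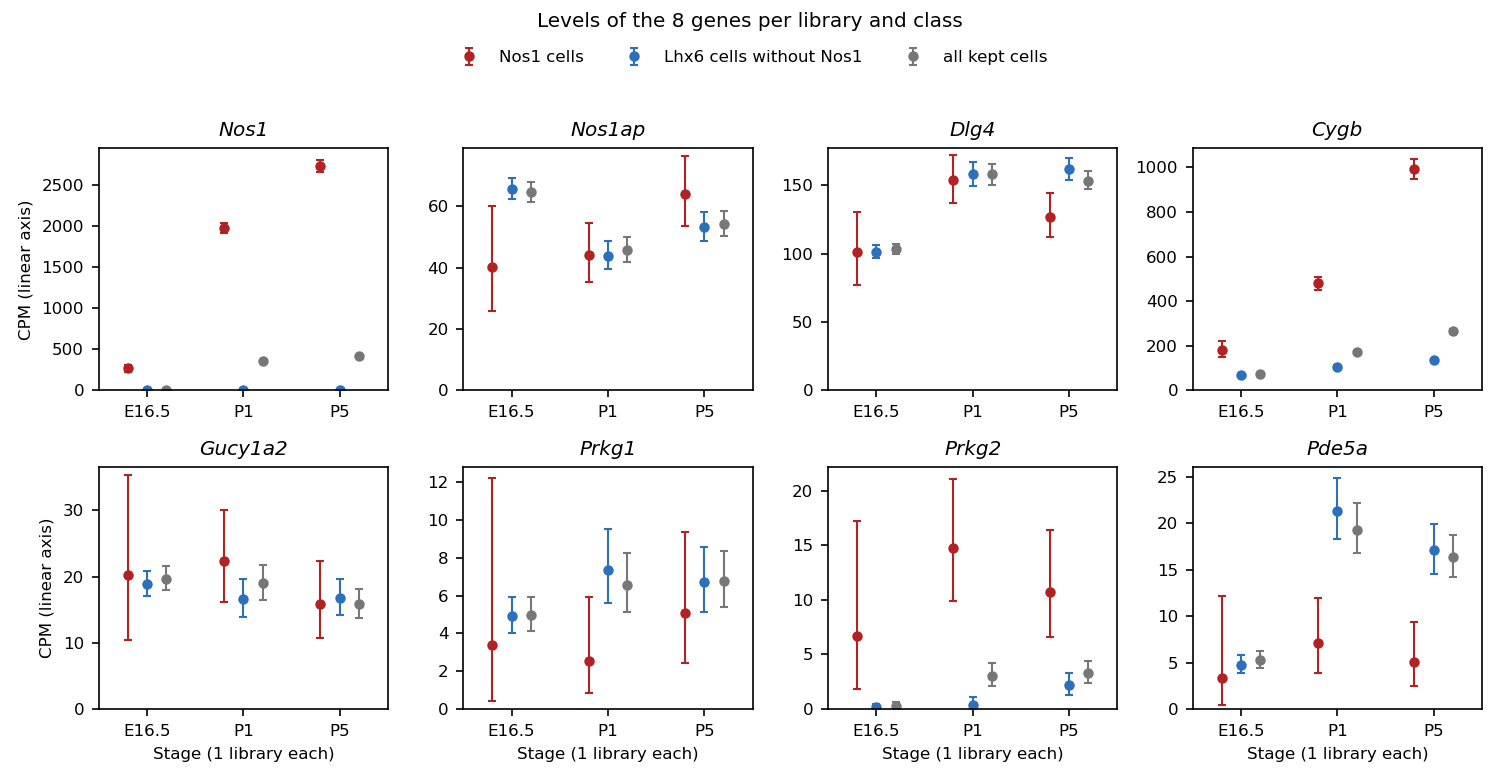
Level in CPM (linear axis) of the 8 genes in each library, in Nos1 cells (red), Lhx6 cells without Nos1 (blue), and all kept cells (grey), with bars for the exact 95% Poisson interval. Cygb and Prkg2 lie higher in Nos1 cells and Pde5a lies lower at P1 and P5, while the intervals of Gucy1a2 overlap at each stage.

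The partners Nos1ap and Dlg4 were within 2-fold between the classes in every library. Nos1ap, the adaptor that binds the same domain of the synthase as PSD-95, was at 40.4 CPM (25.9 to 60.1) in Nos1 cells and 65.8 CPM (62.4 to 69.3) in Lhx6 cells without Nos1 at E16.5. At P1, the levels were 44.2 and 43.9 CPM, and at P5, 64.2 and 53.4 CPM. The log2 ratio was -0.69, 0.01, and 0.26, with an interval that spans 0 at P1 and P5 (-0.35 to 0.35 and -0.03 to 0.55) and lies below 0 at E16.5 (-1.35 to -0.12). Without the cells with excitatory markers, the E16.5 levels were 56.1 and 66.0 CPM and the log2 ratio was -0.23. Over the 16 alternatives it ran from -1.52 to -0.19 at E16.5 and was past 2-fold in 4.

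Dlg4 was at the same level in both classes at E16.5 (101 and 101 CPM, or 87.9 and 101 CPM with a log2 ratio of -0.20 without the cells with excitatory markers) and within 1 interval at P1 (154 and 158 CPM). At P5, it was at 127 CPM (112 to 144) in Nos1 cells and 162 CPM (154 to 170) in the comparison cells. That log2 ratio of -0.34 (-0.54 to -0.15) is within 2-fold. Among the list of 13 partners and anchors of the synthase, which includes both genes, 1 of 11 with enough UMIs was past 2-fold at E16.5 (Dlg1, log2 ratio 1.02 from 16 UMIs in Nos1 cells), beside 6.45% of all genes higher and 8.69% lower, and none of 11 at P1 or of 12 at P5.

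Cygb, which converts nitric oxide to nitrate with oxygen bound to its heme, was higher in Nos1 cells in every library. Its level was 183 CPM (151 to 221) in Nos1 cells against 71.0 CPM (67.5 to 74.7) at E16.5, 480 CPM (450 to 511) against 105 CPM (97.5 to 112) at P1, and 992 CPM (948 to 1037) against 135 CPM (128 to 143) at P5. The intervals of the classes did not overlap at any stage, and the log2 ratio was 1.36 (1.07 to 1.65), 2.19 (2.06 to 2.33), and 2.87 (2.77 to 2.98). At E16.5 it was 1.79 without the cells with excitatory markers. Cygb is among the LRP genes that the study picked from these libraries, so its direction in LRP-rich cells is not independent of that choice.

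Cygb was not confined to Nos1 cells. In cells thinned to 2000 UMIs, it was found in 73.2% of Nos1 cells and 20.9% of Lhx6 cells without Nos1 at P5, in 54.5% and 18.6% at P1, and in 33.8% and 11.9% at E16.5. In the excitatory class it was at 31.4, 13.1, and 81.8 CPM, from 12, 2, and 7 UMIs. Within Nos1 cells at P1, the 405 cells with an Npy UMI had 531 CPM of Cygb, and the 29 without one had 15.3 CPM, from 3 UMIs. At P5, these levels were 1051 CPM in 519 cells and 90.4 CPM in 28 cells. The cells without Npy also held less Nos1, with 184 against 2169 CPM at P1 and 230 against 2891 CPM at P5. They had 36 Nos1 UMIs at P1 and 28 at P5, so most or all of them held a single one. Low Cygb without Npy thus cannot be told apart from low Cygb with few Nos1 UMIs.

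The level of Cygb followed the number of Nos1 UMIs in a cell. At P5, it was 135 CPM in Lhx6 cells with 0 Nos1 UMIs, 284 CPM with 1, 958 CPM with 2 to 4, 1113 CPM with 5 to 9, and 1163 CPM with 10 or more. At P1, it was 105, 194, 482, 582, and 679 CPM in the same order. Most of the difference was reached at 2 to 4 Nos1 UMIs, and the cells with 1 UMI lay between the classes. At E16.5, only the first 3 groups had 20 cells or more, with 71.0, 121, and 231 CPM.

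**Figure D2:**
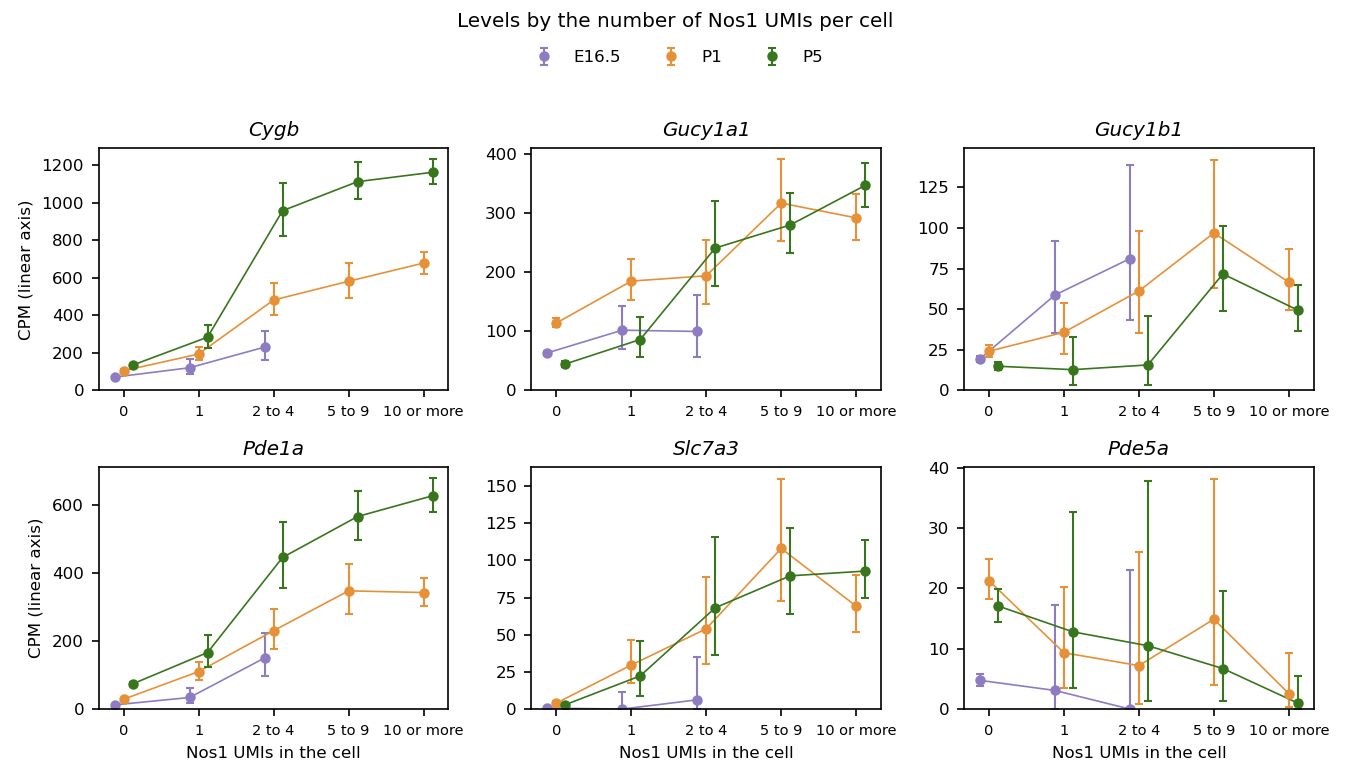
Level in CPM (linear axis) of 6 genes in cells grouped by their number of Nos1 UMIs (the group at 0 holds Lhx6 cells only), per library, with exact 95% Poisson intervals and groups under 20 cells left out. Cygb at P5 goes from 135 CPM at 0 to 1163 CPM at 10 or more, and Pde5a goes from 17.1 to 0.988 CPM.

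Neuroglobin (Ngb), another globin that reacts with nitric oxide, had 48 UMIs in Lhx6 cells without Nos1 and 0 in Nos1 cells at P5, which is 5.18 CPM against at most 1.88 CPM. At P1, the levels were 1.62 and 1.02 CPM, from 13 and 2 UMIs.

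The subunits of the cyclase differed from each other. Gucy1a2, the alpha 2 subunit that tethers the cyclase to PSD-95, was at 20.2 and 18.9 CPM in Nos1 cells and Lhx6 cells without Nos1 at E16.5, at 22.3 and 16.6 CPM at P1, and at 15.8 and 16.7 CPM at P5. Its log2 ratio was 0.09 (-0.87 to 0.92), 0.41 (-0.10 to 0.93), and -0.08 (-0.69 to 0.48), so that every interval spans 0. It was found in both classes at each stage and marked neither.

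Gucy1a1, the alpha 1 subunit, was higher in Nos1 cells, with the widest gap at P5. It was at 109 against 63.5 CPM at E16.5 (log2 ratio 0.77, or 1.09 without the cells with excitatory markers), 247 against 114 CPM at P1 (1.11), and 280 against 44.7 CPM at P5 (2.62, interval 2.46 to 2.83). Between P1 and P5, its level in Lhx6 cells without Nos1 was lower by 1.33 on the log2 scale, and in Nos1 cells it was within 0.18. Gucy1a1 is also among the LRP genes picked by the study from these libraries.

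Gucy1b1, the beta subunit that every active cyclase needs, was at 79.1 against 19.4 CPM at E16.5, 59.9 against 24.1 CPM at P1, and 45.3 against 14.9 CPM at P5. The log2 ratio was 1.97 (1.56 to 2.47), 1.28 (0.97 to 1.65), and 1.54 (1.20 to 2.00) at the 3 stages. At E16.5 it was 2.27 without the cells with excitatory markers. Nos1 cells thus had higher CPM of Gucy1a1 and Gucy1b1, subunits of the receptor that their own product activates, but not clearly of Gucy1a2. Lhx6 cells without Nos1 held Gucy1a1 and Gucy1b1 as well.

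In cells thinned to 2000 UMIs, an alpha subunit (Gucy1a1 or Gucy1a2) and the beta subunit were found together in 7.69% of 65 Nos1 cells (2.54 to 17.0%) at E16.5, in 5.62% of 356 (3.47 to 8.54%) at P1, and in 3.86% of 414 (2.22 to 6.20%) at P5. Among Lhx6 cells without Nos1, the shares were 1.13% (0.788 to 1.57%), 2.13% (1.42 to 3.06%), and 0.598% (0.287 to 1.10%). The intervals of the classes do not overlap in any library. Each part taken singly was also found in a larger share of Nos1 cells. An alpha subunit was found in 23.1%, 43.8%, and 38.4% of them, against 16.5%, 25.7%, and 11.4% of Lhx6 cells without Nos1. The beta subunit was found in 18.5%, 10.1%, and 7.97%, against 3.71%, 4.71%, and 3.29%. Whether the subunits occur together beyond these single shares was not tested. A kinase UMI was found in only 1.54%, 2.53%, and 2.90% of Nos1 cells at this depth, so cells with all 3 parts could not be assessed.

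The kinases had few UMIs and opposite directions. Prkg1, the cGMP-dependent kinase I of smooth muscle and many neurons, was at 3.37 against 4.90 CPM at E16.5 and 5.09 against 6.70 CPM at P5, with intervals of the ratio that span 0. At P1, it was at 2.54 CPM (5 UMIs) in Nos1 cells and 7.37 CPM (59 UMIs) in Lhx6 cells without Nos1, a log2 ratio of -1.24 (-3.21 to -0.23). That call held at P1 only, and it was lost with a pseudocount of 5 CPM and with a stricter cell filter.

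Prkg2, the membrane-bound cGMP-dependent kinase II, was higher in Nos1 cells. At E16.5, both classes had 4 UMIs, in 67 and 3269 cells, which is below the minimum for a call. At P1, Nos1 cells had 29 UMIs in 24 cells (14.7 CPM, 9.86 to 21.1) and the comparison cells 3 UMIs in 3 cells (0.375 CPM, 0.0772 to 1.09). At P5, the counts were 21 and 20 UMIs, or 10.7 CPM (6.62 to 16.4) and 2.16 CPM (1.32 to 3.34). The intervals do not overlap at either stage, and the ratios on the log2 scale were 3.52 and 1.89.

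Pde5a, the cGMP-specific phosphodiesterase that sildenafil blocks, was lower in Nos1 cells after birth. It was at 7.11 CPM (3.89 to 11.9) against 21.3 CPM (18.3 to 24.8) at P1 and at 5.09 CPM (2.44 to 9.37) against 17.1 CPM (14.5 to 19.9) at P5, from 14 and 10 UMIs in Nos1 cells. The intervals do not overlap at these stages, and the log2 ratio was -1.46 (-2.49 to -0.80) and -1.57 (-2.83 to -0.83). At E16.5, the levels were 3.37 and 4.76 CPM, with 2 UMIs in Nos1 cells. In the cells with 10 or more Nos1 UMIs, Pde5a had 2 UMIs in 145 cells at P1 and 1 UMI in 237 cells at P5.

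The gap in Pde5a depended on which Lhx6 cells stood on the other side. Among Lhx6 cells without Nos1, those with an Sst UMI had 13.4 CPM of Pde5a at P1 and those without one 53.2 CPM, and at P5 the levels were 9.14 and 47.3 CPM. With both classes limited to cells with an Sst UMI, the ratios on the log2 scale were -0.98 and -0.96, which is just within 2-fold. Nos1 cells remained lower in each of these comparisons, with 6.29 against 13.4 CPM and 4.23 against 9.14 CPM. These levels of Nos1 cells rest on 11 and 8 UMIs. Their intervals, 3.14 to 11.3 and 1.83 to 8.33 CPM, overlap those of the Lhx6 cells with an Sst UMI.

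Among the Lhx6 cells without Nos1, Pde5a, Gucy1a1, and Gucy1b1 were all lower at P1 and P5 in cells with an Sst, Reln, or Nr2f2 UMI than in cells without it. At P5, Gucy1a1 was at 22.1 CPM in cells with an Sst UMI and 131 CPM in those without, and at 16.9 and 96.8 CPM in cells with and without Reln. In cells with Nr2f2, it was at 2.77 CPM against 60.5 CPM, and Pde5a was at 4.74 CPM against 21.7 CPM. Reln and Nr2f2 are among the MC markers used here. Tac1, an nMC marker, went the other way for Gucy1a1, with 101 CPM in cells with it and 40.8 CPM in cells without. By Tac1, the intervals of Pde5a overlap. By Mef2c, another nMC marker, the genes parted at P1, with Pde5a at 21.9 CPM in cells with it and 3.79 CPM (1 UMI) in cells without, and Gucy1a1 at 112 and 182 CPM.

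**Figure D3:**
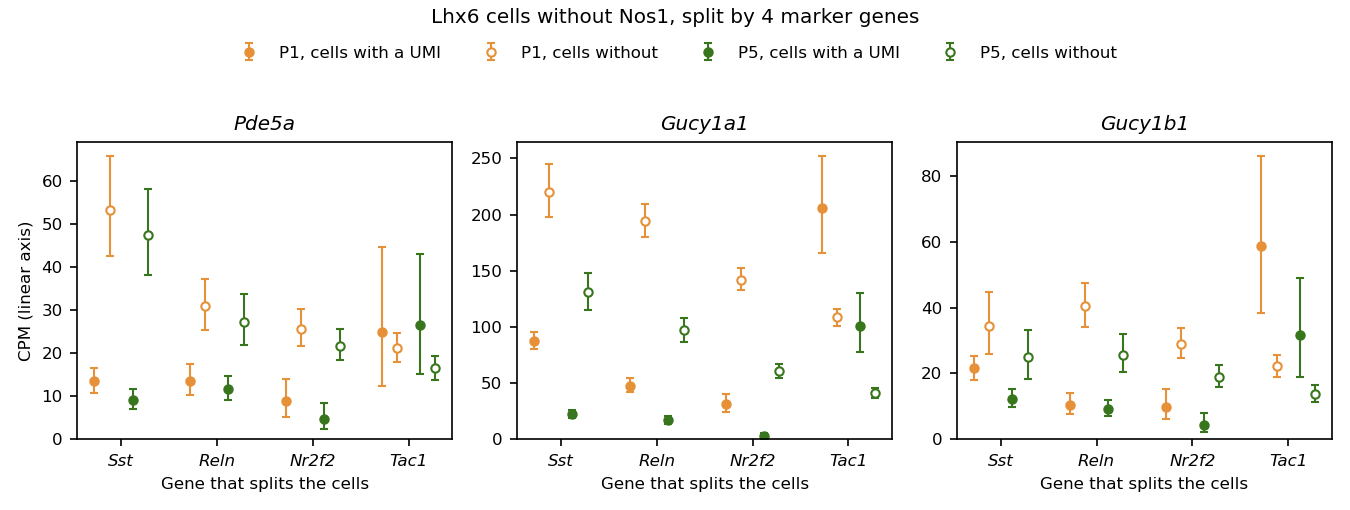
Level in CPM (linear axis) of Pde5a, Gucy1a1, and Gucy1b1 in Lhx6 cells without Nos1, split by the presence (filled points) or absence (open points) of a UMI of Sst, Reln, Nr2f2, or Tac1 at P1 and P5, with exact 95% Poisson intervals. Pde5a lies at 53.2 CPM in P1 cells without Sst and at 13.4 CPM in those with it.

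The other genes of the pathway were taken from a list of 75. Of those with enough UMIs, 9 of 51 were higher and 2 lower in Nos1 cells at E16.5, 6 of 52 higher and 0 lower at P1, and 6 of 54 higher and 7 lower at P5. The shares over all genes were 6.45% higher and 8.69% lower at E16.5, 4.32% and 3.72% at P1, and 4.21% and 7.08% at P5. The median log2 ratio of the listed genes was 0.29, 0.03, and -0.02, beside -0.05, -0.03, and -0.07 over all genes. Besides the cyclase subunits, 2 genes were past 2-fold at P1 and P5 with at least 20 CPM in a class, Slc7a3 and Pde1a. All 4 genes named by this rule were higher in Nos1 cells.

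Slc7a3, a transporter that takes up the arginine the synthase uses, was far higher in Nos1 cells after birth. At P1, it was at 59.4 CPM (49.1 to 71.2) against 4.0 CPM (2.73 to 5.64), and at P5 at 78.4 CPM (66.5 to 91.9) against 2.92 CPM (1.92 to 4.24). The log2 ratio was 3.60 and 4.34. At E16.5, it had 2 UMIs in Nos1 cells and 14 in the comparison cells. Ass1, an enzyme that rebuilds arginine from citrulline, was also past 2-fold at P1 and P5 (6.09 against 2.00 CPM and 15.3 against 2.05 CPM), but below 20 CPM.

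Pde1a, a phosphodiesterase activated by calcium and calmodulin that breaks down cGMP and cAMP, went against Pde5a. It was at 99.3 against 12.3 CPM at E16.5, 251 against 28.8 CPM at P1, and 521 against 73.8 CPM at P5, with log2 ratios of 2.91 (3.13 without the cells with excitatory markers), 3.08, and 2.80. Of the 11 phosphodiesterases listed, Pde1a was the only one at least 2-fold higher at P1 and P5. The shares of all genes that were higher were 4.32% and 4.21%. At E16.5, 2 of the 10 with enough UMIs were higher and 1 was lower, beside 6.45% and 8.69% of all genes. At P1, 1 of 10 was lower (Pde5a), beside 3.72% of all genes. At P5, Pde5a, Pde1b, and Pde2a were at least 2-fold lower, where 7.08% of all genes were lower. Pde1b was at 7.64 against 24.3 CPM and Pde2a at 11.7 against 25.1 CPM. Pde1a too is an LRP gene picked by the study from these libraries.

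**Figure D4:**
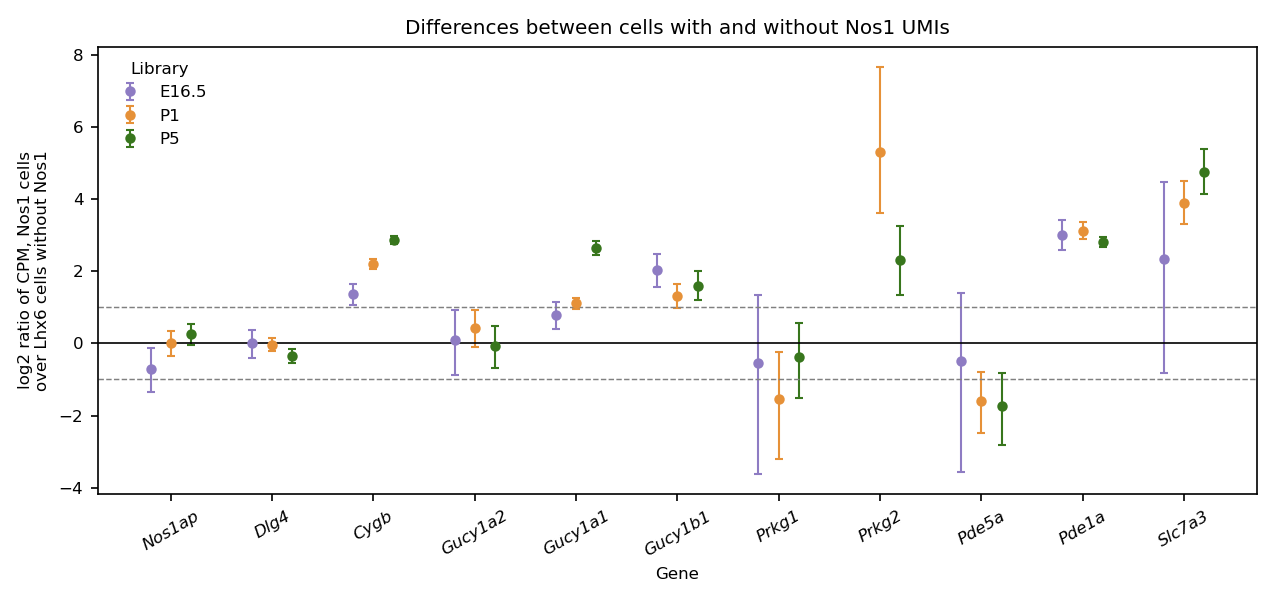
Log2 ratio of CPM (without a pseudocount) of Nos1 cells over Lhx6 cells without Nos1 for 7 of the 8 genes and 4 further genes of the pathway, per library, with exact conditional 95% intervals and dashed lines at 2-fold. Prkg2 at E16.5 is left out with 8 UMIs in all. Cygb, Gucy1a1, Gucy1b1, Pde1a, Prkg2, and Slc7a3 lie above 0 at P1 and P5, and Pde5a lies below.

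At P5, 3 genes of the membrane-bound route to cGMP were lower in Nos1 cells. Npr3, the clearance receptor, was at 3.57 against 28.6 CPM (log2 ratio -2.70). Nppc, the gene of a natriuretic peptide that it binds, was at 4.58 against 10.4 CPM, and Gucy2g, a membrane cyclase, had 0 UMIs in Nos1 cells and 31 in the comparison cells. These were 3 of the 6 genes with enough UMIs in a list of 12, where 7.08% of all genes were lower. The other 3 were within 2-fold, with Npr2, the receptor that makes cGMP, at 7.64 against 5.83 CPM, Nppa at 2.04 against 1.84 CPM, and Gucy2e at 2.55 against 3.13 CPM. At P1, none of 5 was past 2-fold, where 3.72% of all genes were lower.

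Over all kept cells, 4 of the 8 genes (Nos1, Cygb, Prkg2, and Pde5a) were at least 2-fold higher at P1 than at E16.5, where 10.6% of 14837 genes were higher, and none was lower, where 2.91% were. None of the 8 was past 2-fold between P1 and P5, where 7.64% of 14823 genes were higher and 9.03% lower. Between E16.5 and P5, the same 4 genes were past 2-fold, all with more UMIs at P5 (16.9% of 15285 genes), and none was lower (10.8%). The median log2 ratio of the 8 genes was 0.93 at P1 over E16.5, beside 0.18 over all genes.

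Nos1 went from 6.50 CPM at E16.5 to 354 CPM at P1 and 415 CPM at P5 over all kept cells, and Cygb from 73.0 to 174 and 265 CPM. In Lhx6 cells without Nos1, the level of Cygb at P5 was within 2-fold of that at E16.5 (log2 ratio 0.92), and in Nos1 cells it was 2.43 higher on the log2 scale. Pde5a was at 5.28, 19.3, and 16.3 CPM over all kept cells. Its log2 ratio of P1 over E16.5 was 1.96 in Lhx6 cells without Nos1 and 0.89 in Nos1 cells.

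The other 4 genes stayed within 2-fold in each pair of libraries. Nos1ap was at 64.7, 45.8, and 54.3 CPM, Dlg4 at 103, 158, and 153 CPM, Gucy1a2 at 19.7, 19.0, and 15.9 CPM, and Prkg1 at 4.95, 6.57, and 6.75 CPM at E16.5, P1, and P5. Prkg2, at 0.325, 3.01, and 3.26 CPM, was past 2-fold from 8, 33, and 42 UMIs. Prkg2 was within 2-fold of E16.5 with a pseudocount of 5 CPM (log2 ratios of 0.59 and 0.63), and Cygb at P1 without a cell filter (0.96). Under the stricter filter, Nos1 over all kept cells was lower at P5 than at P1, by a log2 ratio of -0.97. Cell loss at P1 and the depth of the libraries move with stage, and their part in these differences was not tested.

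The genes with the pattern most like that of Nos1 across the 3 libraries were not of the pathway. By the lowest log2 ratio over the libraries, among 5752 genes with at least 20 CPM in Nos1 cells of each, they were Ntn1 (4.16), Plpp3 (3.85), Tacr1 (3.65), Drd1 (3.54), and Dach1 (3.50). Ntn1 encodes the guidance cue netrin 1, and Tacr1 and Drd1 encode the receptors of substance P and dopamine. Genes of the pathway list ranked from 8 (Pde1a, 2.80) to 5540 (Rgs2, -0.89). These values and ranks are a description, since the classes were set by Nos1 and the minimum level applied to Nos1 cells only.

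Within Nos1 cells, the levels differed by the presence of Chodl, a marker of adult LRP neurons. At P1, the 224 cells with a Chodl UMI had 2684 CPM of Nos1 and the 210 without one 1206 CPM, and Cygb was at 621 and 329 CPM. At P5, Nos1 was at 3273 CPM in 328 cells with Chodl and 1810 CPM in 219 without, and Gucy1a1 was at 345 and 170 CPM. The level of Cygb in Nos1 cells without a Chodl UMI, 730 CPM at P5, thus lay below that of the cells with one, at 1148 CPM, and above the 135 CPM of the Lhx6 cells without Nos1. As with Npy, low Cygb and Gucy1a1 without Chodl cannot be told apart from low levels with less Nos1.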

How the data were processed

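GFP+ cells of 3 stages were measured as 1 library of pooled animals each. The deposited matrices came from Cell Ranger (3.1.0 at E16.5 and P5, 3.0.2 at P1, per the file headers) with GRCm38 as the reference, and they hold the authors' raw UMI counts of each gene and cell. Of the study's cell filters, the one on read alignment needs values not used here. The study's filter on ln(total UMIs) was left out of the main results and was applied only as an alternative.

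The work used numpy 2.4.6, pandas 2.3.3, scipy 1.17.1, and matplotlib 3.10.9 under Python 3.11.15. Cells were kept with over 700 genes and under 10% mitochondrial UMIs. Doublets were left in, and no doublet caller was run. UMIs were summed per class and library and scaled to CPM, and log2 ratios were taken with a pseudocount of 1 CPM. A gene with at least 10 UMIs over both groups was called past 2-fold. Intervals (95%) are exact Poisson for CPM, Clopper-Pearson for shares, and conditional without the pseudocount for ratios, and they cover counting error only. With 1 library per stage there was no test.

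The genes and lists were chosen with earlier results of these data known. Pathway genes were named when past 2-fold in the same direction at P1 and P5 with at least 20 CPM in a class. The other pathway genes, which the text gives as examples, were chosen after their values were seen. The 5 genes most like Nos1 had the largest lowest log2 ratio over the libraries. Positions are from GENCODE release M21. Only the ratio calls and the Poisson intervals were tested on simulated counts, for genes with many UMIs in the comparison class. The cell filter, the classes, the thinning, and genes with few UMIs were not tested in this way. In all, 16 alternatives were planned and 2 were added after the data were seen.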

Additional observations from a re-analysis of the deposited data

Results flagged for a closer look

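In all, 3 genes of the pathway list passed 2-fold in opposite directions at different stages, and the differences between stages were not tested. The share of all genes that did so was not counted, so this number is a description and no trait of the list. The log2 ratio of Nos1 cells over Lhx6 cells without Nos1 was 3.62 at E16.5 and -1.43 at P5 for Itpr1, the IP3 receptor gene, from 17 and 18 UMIs in Nos1 cells. Without the cells with 3 or more excitatory markers, Nos1 cells at E16.5 had 0 UMIs of Itpr1. For Pde1b it was 1.20 at E16.5 and -1.55 at P5, from 9 and 15 UMIs. For Trpc6, a cation channel, it was -2.49 at E16.5, with 0 UMIs in Nos1 cells, so that this value depends on the pseudocount, and 1.02 at P1, with 25.

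Cells removed by the filter also held Nos1. Its level was 51.6 CPM (45.3 to 58.5) in the 1939 cells removed at P1, where 5.62% of cells had a UMI, and 136 CPM (107 to 171) in the 426 cells removed at P5. Both lie below the levels of the kept cells.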

How the results depend on the processing

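Cygb and Prkg2 at P1 and P5, and Cygb at E16.5, kept their direction and passed 2-fold under all 16 alternatives that bear on them. No called ratio changed sign. Pde5a stayed lower at P1 and P5 under all 16 and was within 2-fold under 1, the limit to cells with an Sst UMI. That limit, added after the data were seen, left 1 gene lower at P1 and 0 at P5. At P1, 1 gene was lower with over 1000 genes and under 5% mitochondrial UMIs or with a pseudocount of 5 CPM. At E16.5, 1 gene was lower under that filter, with at least 2 or 3 Nos1 UMIs, with the mean of per-cell CPM, and without the 5% of cells with the most UMIs, and 2 were with thinned cells, from few UMIs. The share of Nos1 cells at E16.5 was 0.734% with at least 2 UMIs, 0.405% with at least 3, and 0.802% when thinned. At P1 it was 12.3% and 11.0% with at least 2 and 3 UMIs, 33.0% with the stricter filter, and 12.2% with none, and at P5 15.6%, 14.7%, and 23.2%, and 15.6% when thinned. With at least 50 UMIs, 540 genes were higher and 743 lower at E16.5, 280 and 246 at P1, and 305 and 585 at P5, because fewer genes were compared, and with at least 1 UMI, 1374 were higher at E16.5. The main counts were 875 and 1179, 563 and 485, and 565 and 950. Otherwise the cause was not tested. No paired analysis was possible because each stage has 1 library. With 2 to 14 UMIs in Nos1 cells, the ratios of Prkg1 and Pde5a are limited by depth.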
